A study of Mus musculus with 6 samples.

Results

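The genes described here are 9 genes of mast cells and basophils, taken by symbol from a table of 21851 genes: the IgE receptor chains Fcer1a, Ms4a2 and Fcer1g, the granule proteases Cpa3, Mcpt8, Prss34, Cma1 and Tpsb2, and the histamine-forming enzyme gene Hdc. All 9 symbols were found. RNA was sequenced from hematopoietic stem cells (HSCs) sorted from the bone marrow of wild-type mice, in 3 libraries from control mice (Ctrl) and 3 from mice given ionizing radiation (IR). The gate took cells without lineage markers that carried Sca-1, c-Kit and CD150 and lacked Flt3 and CD48. The dose, the time after exposure, the age and sex of the mice and the number of mice pooled are not given in the labels or the design text. Nor is it stated whether each library had its own mice, so the p-values below reflect the spread of these 6 samples, which may be technical.

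Mast cells and basophils store histamine and proteases in granules and bind IgE through the high-affinity receptor FcεRI. Its alpha chain (Fcer1a) binds IgE, the beta chain (Ms4a2) amplifies the signal, and the gamma chain (Fcer1g) carries the signalling motif and also serves other Fc and immune receptors. Both lineages arise from bone marrow progenitors under GATA factors, basophils depend on interleukin-3 for their expansion, and RNA of some of their granule genes is known from early progenitors that are not yet mature mast cells or basophils.

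Libraries of HSCs from irradiated mice held more RNA of the receptor's alpha chain and less of its gamma chain. Fcer1a was 2.44-fold higher and Fcer1g 1.63-fold lower, each beyond the spread of the libraries. Of the proteases, Cpa3 was 1.23-fold higher and Prss34 1.19-fold lower, and Hdc was 1.26-fold higher. The mast cell proteases Cma1 and Tpsb2 were under 1 FPKM in every library. FPKM is fragments per kilobase of transcript, scaled to the mapped fragments of the library, so levels of different genes can be set side by side. A gene was tested if at least 3 libraries reached 1 FPKM, which 10281 genes did. The test was limma on log2(FPKM + 1) with Benjamini-Hochberg adjustment over all tested genes; "rose" and "fell" mean an adjusted p under 0.05, and log2 fold changes are on this scale, which understates the change of low genes. Among the 9 genes, 7 were tested, of which 4 rose, 2 fell and 1 was not called. Over all tested genes 25.8% rose and 28.9% fell, 54.7% in all, so a call by itself is common in these libraries. The counts of each list below are to be read against these shares.

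The libraries held about 14400000 to 16300000 fragments, estimated from the steps between low values. Pearson correlations of log2(FPKM + 1) across genes were 0.9982 to 0.9985 within groups and 0.9901 to 0.9904 between groups. Of the stem cell genes, Kit stood at 97.5 ± 1.72 FPKM (SD, n = 3) in Ctrl and 96.7 ± 1.65 in IR, while Fgd5 was under 1 FPKM in every library. The other genes of markers that the gate required did change. Ly6a (Sca-1) fell from 203 ± 5.13 to 157 ± 5.17 FPKM, and Slamf1 (CD150) rose from 3.57 ± 0.409 to 5.06 ± 0.443 FPKM. RNA of Flt3 (125 ± 1.58 and 65.7 ± 1.43 FPKM) and Cd48 (400.1 ± 3.36 and 351.6 ± 8.003 FPKM), whose proteins the gate required to be absent, was present in both groups. Of 12 markers of B, T and NK cells 5 were tested and 1, Cd3g, was listed at 0 in all 6 libraries, while Nkg7 stood at 535 ± 11.8 and 648 ± 4.25 FPKM and Cd79b at 64.9 ± 4.68 and 47.1 ± 0.279 FPKM. In bulk RNA, more cells of a type and more RNA per cell cannot be told apart. HSC is the name that the labels give to the sorted cells, and their purity was not tested here.

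**Figure D1:**
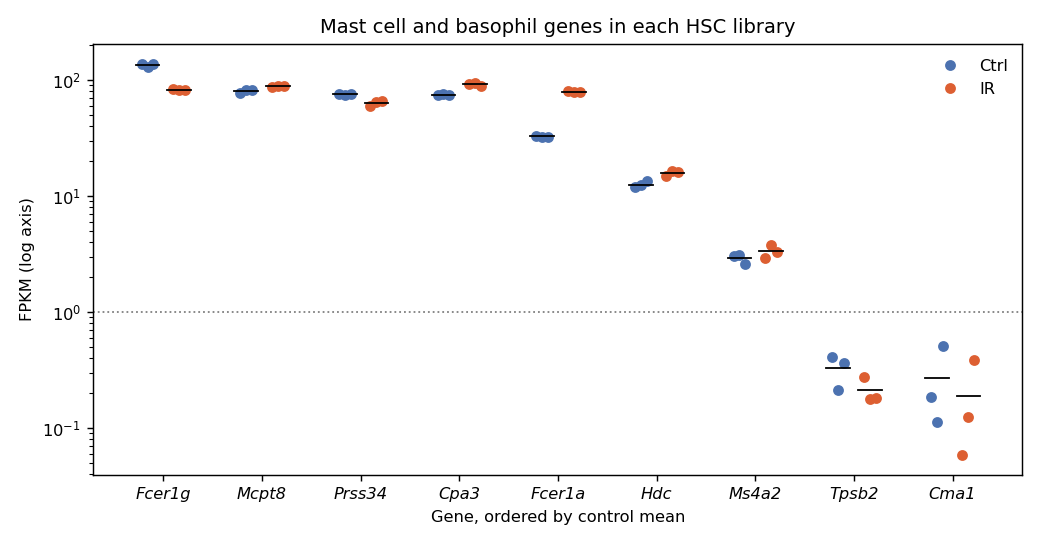
FPKM (log axis) of the 9 genes in each of 3 Ctrl (blue) and 3 IR (orange) libraries; black bars are group means and the dotted line is the 1 FPKM minimum of the test. Fcer1a and Fcer1g stand far apart in Ctrl and close together in IR, and Tpsb2 and Cma1 lie under the line in all 6 libraries.

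The upstream sequence of the 3 receptor chain genes, Cpa3 and Prss34 is shown here as the 250 bases before the annotated start. It is written 5′ to 3′ on the strand of the gene (RefSeq, GRCm38.p6). Capitals mark the GATA hexamers, which are AGATAA, the form AGATAG, the form TGATAA and the form TGATAG, on either strand. The windows are chr1:173227230-173227479 for Fcer1a, chr19:11623720-11623969 for Ms4a2, chr1:171234350-171234599 for Fcer1g, chr3:20242182-20242431 for Cpa3 and chr17:25298144-25298393 for Prss34, the last on the plus strand and the others on the minus strand.
Fcer1a: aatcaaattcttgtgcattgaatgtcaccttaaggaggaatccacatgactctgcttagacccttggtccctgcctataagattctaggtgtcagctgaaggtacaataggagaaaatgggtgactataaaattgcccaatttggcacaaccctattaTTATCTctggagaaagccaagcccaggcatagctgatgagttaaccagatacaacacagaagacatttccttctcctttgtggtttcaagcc
Ms4a2: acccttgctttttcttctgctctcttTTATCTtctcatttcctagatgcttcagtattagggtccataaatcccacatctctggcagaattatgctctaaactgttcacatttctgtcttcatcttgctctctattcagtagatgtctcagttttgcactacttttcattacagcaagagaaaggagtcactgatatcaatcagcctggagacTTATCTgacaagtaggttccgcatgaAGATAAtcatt
Fcer1g: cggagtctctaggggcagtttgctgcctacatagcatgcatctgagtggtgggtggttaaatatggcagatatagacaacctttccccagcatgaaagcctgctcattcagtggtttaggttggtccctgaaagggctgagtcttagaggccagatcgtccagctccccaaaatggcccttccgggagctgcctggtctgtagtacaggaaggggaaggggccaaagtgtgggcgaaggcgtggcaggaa
Cpa3: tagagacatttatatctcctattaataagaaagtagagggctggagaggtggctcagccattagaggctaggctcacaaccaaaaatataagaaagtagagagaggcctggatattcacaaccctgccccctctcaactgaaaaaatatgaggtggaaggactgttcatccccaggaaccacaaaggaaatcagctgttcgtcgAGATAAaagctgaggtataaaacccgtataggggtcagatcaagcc
Prss34: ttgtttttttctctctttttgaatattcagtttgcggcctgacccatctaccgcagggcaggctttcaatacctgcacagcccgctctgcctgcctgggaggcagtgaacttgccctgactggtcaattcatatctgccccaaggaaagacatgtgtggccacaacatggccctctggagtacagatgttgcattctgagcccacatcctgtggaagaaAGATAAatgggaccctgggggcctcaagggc
The hexamer begins 92 bases before the start in Fcer1a, 46 in Cpa3 and 31 in Prss34, and Ms4a2 holds 3 of them, at 224, 37 and 11 bases. The Fcer1g window holds none. A sequence was found for 8 of the 9 genes, and 6 of these 8 windows had at least 1 hexamer, as did 26.5% of 32841 windows of the same length. The hexamer occurs in 3 genes that rose (Fcer1a, Cpa3, Hdc) and in 1 that fell (Prss34), and it is missing from the windows of 1 gene that rose (Mcpt8) and 1 that fell (Fcer1g). The windows lie before RefSeq starts, which can differ from the GENCODE gene ends given in this report. The Hdc window (126618679 to 126618928) lies wholly inside the GENCODE gene (126593667 to 126619299). The windows of Fcer1g and Mcpt8 overlap the ends of theirs. For Hdc the hexamer is thus not upstream by the GENCODE coordinates. These are letter matches and not measured binding, and a link to the changes was not tested.

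The alpha chain gene Fcer1a (chromosome 1, 173221284 to 173227214, minus strand, GRCm38) encodes the chain that binds IgE. Its level was 33.2, 32.4 and 32.3 FPKM in the Ctrl libraries and 79.9, 79.5 and 79.2 FPKM in the IR libraries. All IR libraries lay far above all Ctrl libraries, with little spread in either group. The means were 32.6 ± 0.503 and 79.6 ± 0.330 FPKM, a log2 fold change of 1.26 (SE 0.027, limma Benjamini-Hochberg adjusted p = 1.03e-09). This was rank 5 from the top of the 10281 tested genes, and Fcer1a moved from between the 71.3 and 71.9 percentiles of tested genes in Ctrl to between 87.4 and 87.6 in IR.

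The gamma chain gene Fcer1g (chromosome 1, 171229572 to 171234365, minus strand) lies 1.99 Mb from Fcer1a. Its level was 139, 128 and 137 FPKM in Ctrl and 83.8, 82.3 and 82.3 FPKM in IR. Every IR library was below every Ctrl library. The means were 135 ± 5.45 and 82.8 ± 0.849 FPKM, a log2 fold change of -0.69 (SE 0.031, limma Benjamini-Hochberg adjusted p = 1.16e-07), at rank 172 from the lowest change of all tested genes. In Ctrl, Fcer1g was the most abundant of the 9 genes.

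The beta chain gene Ms4a2 (chromosome 19, 11615523 to 11623719, minus strand) was scarce. Its level was 3.02, 3.08 and 2.59 FPKM in Ctrl and 2.94, 3.75 and 3.30 FPKM in IR, so the groups overlapped. The log2 fold change of 0.15 was not called (95% interval -0.03 to 0.33, limma Benjamini-Hochberg adjusted p = 0.137). Without IR replicate 1, the lowest IR library, the change was 0.22 and was called (adjusted p = 0.0484, against 0.0484 to 0.419 over all alternatives). About 89.4 to 132 fragments lay behind each Ms4a2 value, against 465 to 1258 for Fcer1a.

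Within a library, the ratio of alpha to gamma chain RNA was 0.239, 0.252 and 0.236 in Ctrl and 0.954, 0.967 and 0.962 in IR. Fcer1g RNA thus exceeded Fcer1a RNA 3.97- to 4.24-fold in Ctrl and 1.03- to 1.05-fold in IR. The alpha to gamma ratio was 3.97-fold higher in IR, the alpha to beta ratio 2.13-fold higher (11.3 ± 1.02 in Ctrl and 24.1 ± 2.98 in IR) and the beta to gamma ratio 1.86-fold higher (0.0216 ± 0.00255 and 0.0402 ± 0.00524). In each of the 3 ratios the groups did not overlap, and each had an exact permutation p = 0.10 (2-sided, 0.10 after adjustment over the 3), the smallest that 3 against 3 libraries allow. This separation follows from the levels of the chains given above and is no further evidence of a change.

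**Figure D2:**
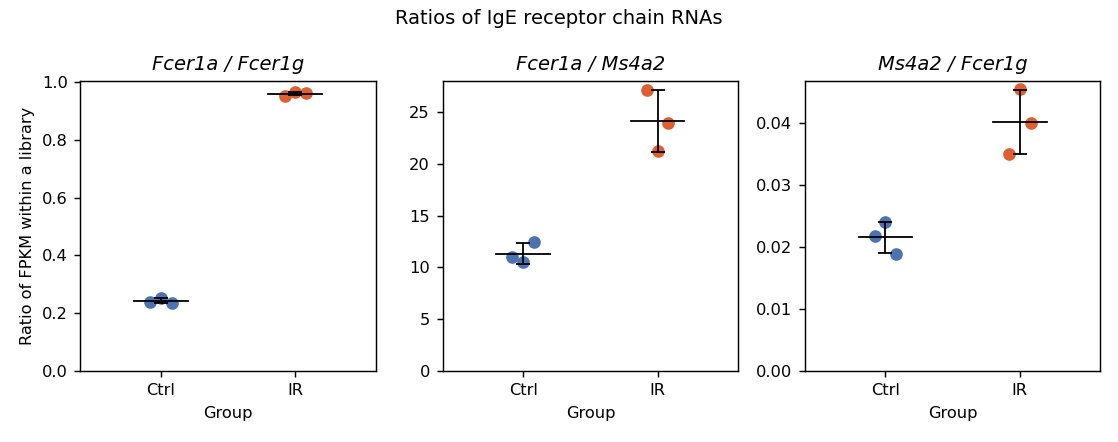
Ratios of the FPKM of IgE receptor chain genes within each library (points), with group mean and SD (bars), in 3 Ctrl and 3 IR libraries; each axis starts at 0. The Fcer1a to Fcer1g ratio is near 0.24 in Ctrl and near 0.96 in IR, and no ratio overlaps between groups.

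Cpa3 encodes mast cell carboxypeptidase A, which trims peptides in secretory granules, and is also known from basophils and early progenitors (chromosome 3, 20215620 to 20242181). Its level was 74.6, 75.1 and 75.0 FPKM in Ctrl and 92.9, 94.3 and 88.7 FPKM in IR, with no overlap. The log2 fold change was 0.29 (SE 0.028, limma Benjamini-Hochberg adjusted p = 1.76e-05). Cpa3 was the most abundant of the 9 genes in IR, where its range overlapped that of Mcpt8; both genes overlap an annotated miRNA gene, Mir7007 in Cpa3 and Mir6949 in Mcpt8. Of 12 genes on a list of carboxypeptidases 3 were tested: besides Cpa3, the lysosomal Cpq fell from 54.4 ± 2.42 to 45.6 ± 0.341 FPKM, and Cpd was not called at 1.71 ± 0.0892 and 1.90 ± 0.176 FPKM.

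Mcpt8 and Prss34 encode serine proteases that mark mouse basophils, and they moved in opposite directions. Mcpt8 (chromosome 14, 56082166 to 56085273) was at 77.9, 82.1 and 82.5 FPKM in Ctrl and 87.0, 89.0 and 89.4 FPKM in IR. The groups did not overlap, but the change was small, 1.09-fold or 0.13 on the log2 scale (95% interval 0.07 to 0.19, limma Benjamini-Hochberg adjusted p = 0.00358); 48.0% of all tested genes changed less. Prss34, the protease mMCP-11 (chromosome 17, 25298394 to 25300165), was at 75.8, 74.2 and 76.0 FPKM in Ctrl and 60.0, 64.4 and 65.9 FPKM in IR. All IR values were lower than all Ctrl values, with a log2 fold change of -0.25 (SE 0.035, limma Benjamini-Hochberg adjusted p = 0.000238). In Ctrl the ranges of Prss34 and Cpa3 overlapped, so their order there is not resolved; in IR they stood apart, at 63.4 ± 3.08 and 92.0 ± 2.90 FPKM.

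The chymase gene Cma1 and the tryptase gene Tpsb2, proteases of connective tissue mast cells, were near the limit of detection. Cma1 was at 0.186, 0.113 and 0.509 FPKM in Ctrl and 0.0581, 0.124 and 0.383 FPKM in IR, which corresponds to about 1.0 to 8.0 fragments per library. Tpsb2 was at 0.410, 0.213 and 0.360 FPKM in Ctrl and 0.274, 0.176 and 0.181 FPKM in IR, about 3.3 to 7.8 fragments. The groups overlapped in both genes, neither was tested, and no difference was detectable at this depth. Cma1 lies 137.5 kb from Mcpt8 in the chymase locus of chromosome 14, and Tpsb2 lies 66.1 kb from Prss34 in the tryptase locus of chromosome 17, so each of these pairs joins an abundant RNA with one near 0. Of 26 protease genes listed for these loci 4 were tested, of which 3 rose and 1 fell, and 14 were listed at 0 in all libraries, among them Mcpt1. Besides Mcpt8 and Prss34 these were Ctsg, cathepsin G of neutrophil precursors, which rose from 1334 ± 7.63 to 1522 ± 11.6 FPKM, and Gzmb, granzyme B, which rose from 1.11 ± 0.213 to 2.72 ± 0.607 FPKM. These proteases resemble each other in sequence, so reads of single members may be shared.

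Hdc encodes histidine decarboxylase, which makes histamine (chromosome 2, 126593667 to 126619299). Its level was 11.9, 12.3 and 13.4 FPKM in Ctrl and 15.0, 16.3 and 16.1 FPKM in IR, without overlap. The log2 fold change was 0.31 (SE 0.051, limma Benjamini-Hochberg adjusted p = 0.000585). Of 14 genes of histamine synthesis, transport, breakdown and sensing 6 were tested, and 3 rose, 1 fell and 2 were not called (median change 0.13 on the log2 scale). Slc18a2, the vesicular transporter that loads histamine and other amines into granules, rose from 26.3 ± 0.589 to 35.6 ± 0.790 FPKM. The organic cation transporter gene Slc22a3 rose from 15.5 ± 0.622 to 19.4 ± 1.08 FPKM. Hnmt, the methyltransferase that inactivates histamine, fell from 16.4 ± 0.407 to 13.6 ± 0.666 FPKM. The share of this list called was 66.7%, against 54.7% of all tested genes.

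**Figure D3:**
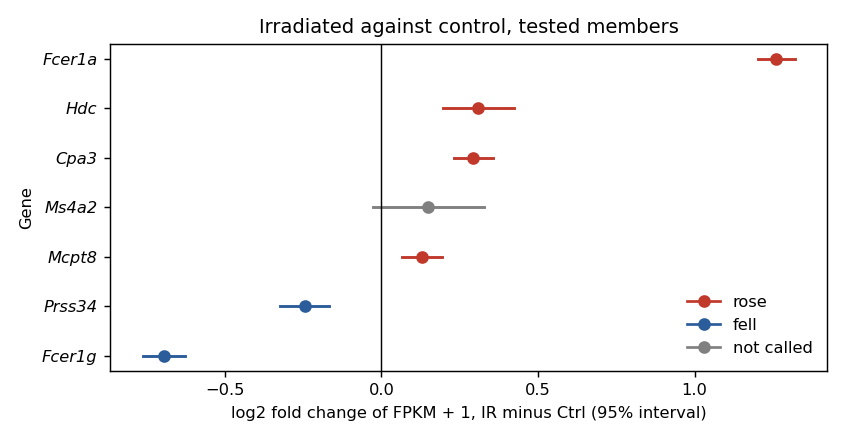
Log2 fold change of FPKM + 1 (IR minus Ctrl, points) with limma 95% intervals (lines) for the 7 tested genes; red rose, blue fell, grey was not called. Fcer1a at 1.26 and Fcer1g at -0.69 lie far from the other 5, which lie between -0.25 and 0.31.

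In Ctrl the order of levels from the highest was Fcer1g, Mcpt8, Prss34, Cpa3, Fcer1a, Hdc, Ms4a2, Tpsb2 and Cma1, and in IR it was Cpa3, Mcpt8, Fcer1g, Fcer1a, Prss34, Hdc, Ms4a2, Tpsb2 and Cma1. Neighbours whose ranges overlapped were Prss34 and Cpa3 in Ctrl, Cpa3 and Mcpt8 in IR, and Tpsb2 and Cma1 in both. The sum of the 9 levels was 408 to 419 FPKM in Ctrl and 422 to 429.8 FPKM in IR. Among the 7 tested genes, 4 lay wholly above and 2 wholly below the Ctrl range. Over all tested genes 29.1% lay above and 32.5% below, 61.7% in all. The median log2 fold change of the 7 was 0.15, against -0.01 over all tested genes. Among genes whose mean over the 6 libraries was 5 FPKM or more, the 3 whose log2(FPKM + 1) followed Fcer1a most closely were Hsp90b1, a chaperone of the endoplasmic reticulum (r = 0.99975), Mpo, the myeloperoxidase of granulocyte precursors (r = 0.99955), and Clca3a1, a chloride channel regulator (r = 0.99955), which was at 3.07 ± 0.0333 FPKM in Ctrl and 7.57 ± 0.132 FPKM in IR. With 2 groups of 3 libraries these values reflect mainly the group difference, and they are a description out of 7436 genes compared.

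Other genes known from mast cells and basophils also moved both ways. Of 29 listed 13 were tested, and 6 rose, 4 fell and 3 were not called (median change 0.02 on the log2 scale). Ms4a3, a tetraspan gene of granulocyte and basophil precursors and a neighbour of Ms4a2, rose from 219 ± 3.70 to 294 ± 2.79 FPKM. Ctse, the aspartic protease cathepsin E, fell from 35.3 ± 1.004 to 23.1 ± 0.570 FPKM, and Ctsg rose, as given above. Srgn, the proteoglycan core to which granule proteases bind, was named after its value was seen and was not called, at 391 ± 8.02 and 396 ± 4.69 FPKM. On this list 5 genes were listed at 0 in every library, Mcpt1 among them.

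In the signalling cascade below the receptor, changes were small. Of 28 listed genes 26 were tested: 13 fell, 2 rose and 11 were not called, and the median log2 change was -0.08. The share called was 57.7%, near the 54.7% of all tested genes. The phospholipase gene Plcg1 fell from 9.80 ± 0.362 to 7.26 ± 0.246 FPKM, the GTPase gene Rac2 from 227 ± 0.948 to 204 ± 3.09 FPKM and the phosphatase gene Ptpn6 (SHP-1) from 207 ± 0.807 to 187 ± 2.40 FPKM. Plcg1 changed by -0.39 on the log2 scale, and the other changes of this list were between -0.22 and 0.28. The kinases that act first on the receptor were named after their values were seen: Lyn was at 37.9 ± 1.01 and 36.5 ± 1.19 FPKM and Syk at 8.74 ± 0.113 and 9.03 ± 0.0725 FPKM, neither of them called.

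The gamma chain has other partners, listed here together with relatives that need not pair with it, and most of the called genes fell. Of 24 listed receptors and adaptors, which include other Fc receptors and the related adaptor genes Tyrobp, Hcst and Cd247, 14 were tested, and 1 rose, 8 fell and 5 were not called (median change -0.16 on the log2 scale). The share called was 64.3%, against 54.7% of all tested genes. Of the 8 falls, that of Cd247 is of a gene that reached 1 FPKM in Ctrl alone. The 1 rise was Clec4e, named after its value was seen, from 31.7 ± 0.968 to 35.8 ± 0.845 FPKM. Pirb, an inhibitory immunoglobulin-like receptor, fell from 4.55 ± 0.208 to 1.83 ± 0.270 FPKM. Cd300lb, an activating receptor of myeloid cells, fell from 11.2 ± 0.507 to 6.15 ± 0.474 FPKM, and Tyrobp, the adaptor DAP12, from 256 ± 11.8 to 216 ± 6.35 FPKM. Fcgr3, an IgG receptor that needs the gamma chain, was named after its value was seen and stood at 19.3 ± 0.640 and 19.3 ± 0.419 FPKM, not called (95% interval of the log2 fold change -0.09 to 0.08).

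The tested genes of the Ms4a family, to which the beta chain gene belongs, fell except for Ms4a2 and Ms4a3. Of 18 listed 7 were tested, with 1 rise (Ms4a3), 5 falls and 1 gene not called (Ms4a2), and a median log2 fold change of -0.40. Ms4a4b, known from T cells, fell from 12.6 ± 0.674 to 5.91 ± 0.288 FPKM and Ms4a6b from 54.4 ± 2.41 to 39.1 ± 0.335 FPKM. The family's members are alike in sequence, and reads may be shared.

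Transcription factor genes of the lineage changed in both directions. Of 21 listed 20 were tested, and 8 rose, 7 fell and 5 were not called (median change -0.06 on the log2 scale). Gata1, a GATA factor of basophils, mast cells, erythroid cells and megakaryocytes, rose from 12.7 ± 0.892 to 21.7 ± 1.57 FPKM. Cebpe, a factor of granulocyte maturation, rose from 8.03 ± 1.17 to 12.6 ± 0.0954 FPKM, and Irf8, a factor of monocytes and dendritic cells that is also needed for basophil precursors, fell from 51.5 ± 0.696 to 37.5 ± 1.81 FPKM. Gata2 and Mitf were named after their values were seen. Gata2, needed for mast cells and basophils as well as HSCs, rose from 44.4 ± 1.11 to 53.5 ± 2.31 FPKM, and Mitf, the mast cell factor, was untested at 0.443 ± 0.0920 and 0.350 ± 0.0323 FPKM.

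Among receptors for the cytokines of these lineages 9 fell and 1 rose. Of 19 listed 15 were tested and the other 5 were not called (median change -0.14 on the log2 scale). The share called was 66.7%, against 54.7% of all tested genes. Il10ra fell from 16.9 ± 0.872 to 11.6 ± 0.398 FPKM and Il4ra from 29.6 ± 1.04 to 23.8 ± 0.288 FPKM. Il7r, the receptor subunit shared by interleukin-7 and TSLP, was at 1.63 ± 0.108 and 0.708 ± 0.0398 FPKM; it reached the 1 FPKM minimum in the Ctrl libraries alone, so its entry into the test depended on the group where it was high, and without any 1 Ctrl library it was not tested. Il3ra, the specific chain of the interleukin-3 receptor, was named after its value was seen and fell from 3.60 ± 0.419 to 3.03 ± 0.137 FPKM (limma Benjamini-Hochberg adjusted p = 0.0447). Kit, the stem cell factor receptor on which mast cells depend, was not called, as given above.

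**Figure D4:**
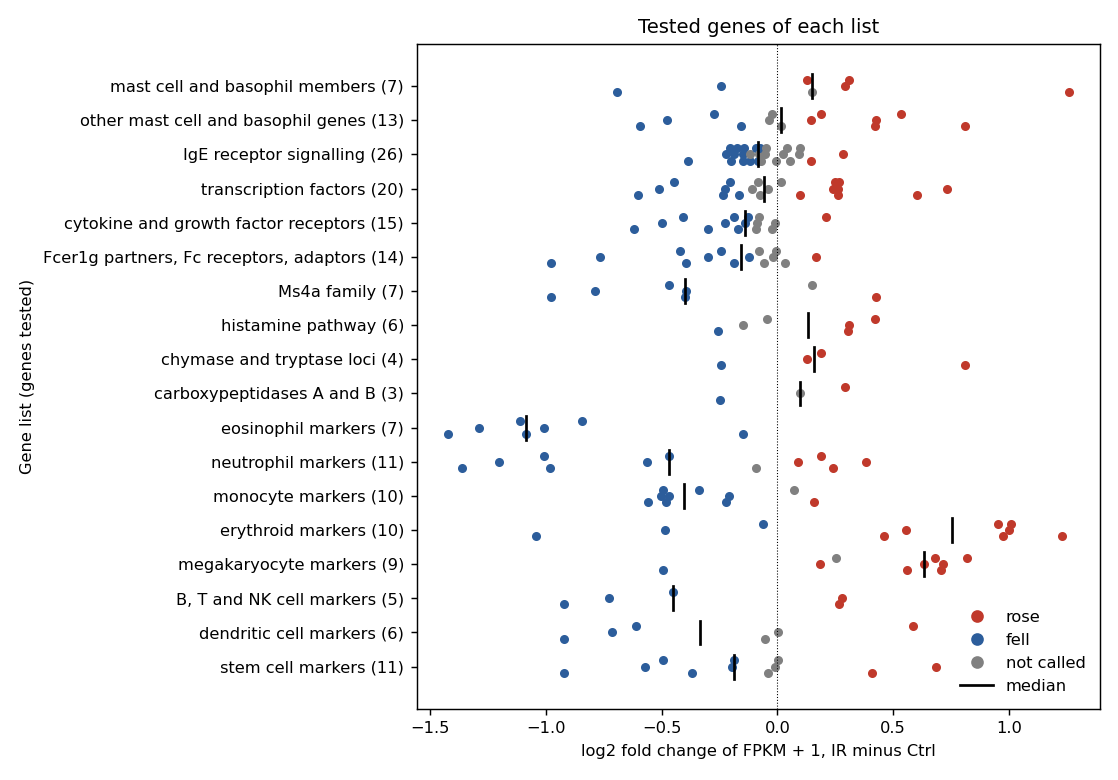
Log2 fold change of FPKM + 1 (IR minus Ctrl) of each tested gene (points; red rose, blue fell, grey not called) in each gene list, with the list's median (black bar) and the number tested in parentheses. The 7 eosinophil markers all lie below 0, whereas the mast cell and basophil genes lie on both sides.

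Markers of other cell types moved between the same libraries, and their part in the changes above was not tested. Eosinophil markers, of a granulocyte closely related to the basophil, fell in 7 of 7 tested cases of 10 listed, with a median log2 fold change of -1.09, a sum of 122 to 129 FPKM in Ctrl and 57.7 to 63.2 FPKM in IR, and none at 0 in all libraries; Prg2, the granule major basic protein, fell from 87.4 ± 2.73 to 40.0 ± 2.08 FPKM. Neutrophil markers rose in 4 and fell in 6 of 11 tested cases, with sums of 5301 to 5335 FPKM in Ctrl and 6069.9 to 6229 FPKM in IR; the late granule gene Ngp fell from 9.21 ± 0.944 to 2.96 ± 0.157 FPKM, and Ctsg stands on this list too. Monocyte markers fell in 8 of 10 cases and rose in 1, with sums of 751 to 756 FPKM in Ctrl and 662 to 674 FPKM in IR, and Csf1r fell from 22.1 ± 0.356 to 14.7 ± 0.513 FPKM. The erythroid list rose in 7 and fell in 3 of 10 tested cases (sums of 539 to 548 and 559.8 to 574 FPKM), with the smallest p in Car1 (log2 fold change 1.23) and falls in the globin genes Hbb-bs and Hba-a1 and in Car2. The megakaryocyte list rose in 7 and fell in 1 of 9 (189 to 194 and 249 to 261 FPKM), with the smallest p in Itga2b (0.63). Among markers of B, T and NK cells 2 rose and 3 fell of 5 tested, with Nkg7 at 0.28 and sums of 597 to 628 FPKM in Ctrl and 702 to 709.5 FPKM in IR, and among dendritic cell markers 1 rose and 3 fell of 6. Some of these counts hold genes that reached 1 FPKM in 1 group alone and so were tested only because they were high there: of the falls 2 of the neutrophil list, 1 of the monocyte list, 1 of the B, T and NK list and 2 of the dendritic list, and of the rises 1 of the erythroid list. None of the 7 tested mast cell and basophil genes was such a gene. The stem cell list rose in 2 and fell in 6 of 11 tested cases; Flt3, which stands on both of the last lists, had the smallest p in each, at a log2 fold change of -0.92.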

How the data were processed

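Per the submitters' processing notes, the authors used fastp, HISAT2 and StringTie on the mouse build GRCm38 (mm10); versions, settings, order and annotation are not stated in the notes, labels or headers. Per the labels' protocols, libraries were made with a stranded kit that selects polyadenylated RNA. The deposited values were taken as FPKM, 1 per gene symbol and library, from the tools named and the values, since no unit is written; library sums were 485166 to 489838 over 21851 genes, after leaving out 27 entries that carry a date in place of a symbol. No 2 libraries held identical values.

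Depth was estimated in genes with a single GENCODE M21 transcript: at the best step 23.9% to 25.6% of low values lay within 0.01 of a whole number of fragments, too few to recover reads, so FPKM were used throughout. Fragments behind a member's value were worked back from its longest coding transcript and are approximate. A gene entered the test when 3 or more libraries reached 1 FPKM. The test was limma 3.58.1 in R 4.3.3, fitted to log2(FPKM + 1) (mean-variance trend, 2-sided, Benjamini-Hochberg over 10281 genes, adjusted p under 0.05). The fit was tested on simulated data. Ratios of receptor chains were compared with exact permutation tests.

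Gene coordinates are from GENCODE M21 and promoters from RefSeq, both on GRCm38. The genes named are the 9 members, the 3 genes with the smallest p of each related list, 1 of each list of other cell types and the 3 genes closest to Fcer1a. The others were chosen after their values were seen: Kit, Ly6a, Slamf1, Fgd5, Cd48, Cd3g, Cd79b, Cd247, Clec4e, Mcpt1, Hbb-bs, Hba-a1, Car2, Srgn, Lyn, Syk, Fcgr3, Gata2, Mitf and Il3ra, and in the closing section Ackr1, Aim2, Tomm40l, Il1rl1, Cd200r3 and Mcpt4. The members and lists were chosen with earlier results of these data known. Alternatives were other pseudocounts, filters and scalings, no trend, a replicate block and leaving out each library.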

Additional observations from a re-analysis of the deposited data

How the results depend on the processing

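The 4 rises and 2 falls among the 9 genes kept their direction and stayed past the threshold with pseudocounts of 0.1 and 5, without a filter, with a filter of 5 FPKM, with libraries scaled to a sum of 1000000 or by median ratios, without the mean-variance trend and with each library left out. Over these alternatives the log2 fold change was 1.17 to 1.28 for Fcer1a, -0.73 to -0.67 for Fcer1g, 0.27 to 0.32 for Cpa3, 0.10 to 0.14 for Mcpt8, -0.27 to -0.21 for Prss34 and 0.24 to 0.35 for Hdc. Ms4a2 was not called except without IR replicate 1 (0.22, adjusted p = 0.0484); leaving out 1 library gave from 0.081 to 0.22, and the filter of 5 FPKM left it untested. The values showed no pairing by replicate number. Same-numbered libraries correlated at 0.0085, -0.031 and -0.049 in their deviations from the group means, and not every library correlated best with its own number. With 3 libraries per group this cannot tell whether same-numbered libraries shared an origin. With the replicate block 2539 genes rose and 2840 fell, against 2650 and 2972 without it, and among the 9 genes 4 rose and 2 fell as before. Of the log2 differences of the untested genes, that of Cma1 lay between -0.21 and 0.04 when 1 library was left out. Depth limits Cma1 and Tpsb2, whose values rest on 1.0 to 8.0 fragments per library.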

Other observations

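Genes near the members were described within 200 kb on either side, a window chosen after the values were seen. Around Fcer1a lie 9 other genes of the table, of which 2 were tested. Ackr1, the atypical chemokine receptor known as Duffy antigen, lies 104.7 kb from Fcer1a and was at 2.34, 3.08 and 2.22 FPKM in Ctrl and 8.04, 7.30 and 8.36 FPKM in IR, a log2 fold change of 1.34 (SE 0.088, limma Benjamini-Hochberg adjusted p = 1.53e-06). Both genes rose, and in both all IR libraries lay above all Ctrl libraries, as in 29.1% of all tested genes. Aim2, a DNA sensor 123.7 kb away, had a log2 fold change of -0.20 (adjusted p = 0.0309 by limma). Around Fcer1g 16 genes were tested, of which 1 rose, 7 fell and 8 were not called. Over all tested genes 25.8% rose and 28.9% fell, 54.7% in all. The gene that rose near Fcer1g was Tomm40l, 7.1 kb away, from 17.5 ± 0.231 to 20.9 ± 0.580 FPKM. Around Ms4a2, where most of the tested neighbours are of its own family, 2 rose and 5 fell of 9 tested, and Ms4a3, which rose, lies 5.8 kb away.

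Some genes of mature mast cells and basophils lay under the 1 FPKM minimum of the test and are given as values only, named after they were seen. Il1rl1, the interleukin-33 receptor, was at 0.263, 0.396 and 0.279 FPKM in Ctrl and 0.680, 0.681 and 0.757 FPKM in IR. Cd200r3, a receptor of basophils and mast cells, was at 0.473, 0.504 and 0.577 FPKM in Ctrl and 0.206, 0.326 and 0.227 FPKM in IR. The groups did not overlap in either gene, Il1rl1 being higher and Cd200r3 lower in IR. Over all tested genes 61.7% did not overlap, and other untested genes of the same list also lay apart, in both directions. Mcpt4, a mast cell chymase, was listed at 0 in the Ctrl libraries and at 0.448, 0.205 and 0.211 FPKM in IR. These IR values lie within the range of Cma1, whose values rest on about 1.0 to 8.0 fragments per library. They are thus near the limit of detection.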
